A study of Mus musculus with 4 samples.

Results

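Genes of GABA and glycine transmission were followed in hippocampal RNA of mice that had undergone global cerebral ischemia (GCI), in which the brain's blood supply is briefly cut off. The set holds 28 genes, chosen by symbol: subunits of the GABA-A, GABA-B and glycine receptors, the enzymes and transporters that make, load, take up and break down GABA, and the scaffold gene Gphn. All 28 were among the 22609 genes listed in the count files. Libraries came from PELP1 FBKO mice, in which the estrogen receptor co-regulator gene Pelp1 is knocked out in the forebrain, and from FLOXED mice, with 2 libraries per genotype. All mice were C57BL/6, had been ovariectomized, carried estradiol (E2) mini pumps and were killed after GCI and 24 h of reperfusion. Age, the Cre driver of the knockout and whether a library came from a single animal are unknown from the sources used here. Since all 4 libraries share ischemia and estradiol, a response to these cannot be told apart from a genotype difference that preceded them.

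GABA is the main inhibitory transmitter of the hippocampus. Interneurons make it from glutamate with glutamate decarboxylase, load it into vesicles and release it onto ion channels of the GABA-A family, which pass chloride, and onto GABA-B receptors, which act through G proteins. Transporters on neurons and astrocytes then clear it and a mitochondrial transaminase degrades it. Glycine receptors are chloride channels of the same superfamily, and gephyrin anchors them and many GABA-A receptors at synapses.

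Of the 28 genes, 22 had enough reads to be tested and 6 (Gabra6, Gabre, Gabrq, Gabrr1, Glra1 and Glra4) did not. The genes for making, loading, taking up and degrading GABA stood higher in each PELP1 FBKO library than in either FLOXED library, with fitted folds between 1.36 and 2.19. Most receptor subunits and Gphn differed by less, and the groups overlapped in 9 of the 22, all of them receptor genes or Gphn. None passed the threshold of an adjusted p of 0.05 in edgeR's quasi-likelihood test, where 0% of all 14978 tested genes passed in either direction. An unadjusted p under 0.05 was reached by 9 of the 22 in the direction of higher levels and by 0 in the other, against 10.1% and 5.55% of all tested genes. DESeq2 called 5 higher and 0 lower at an adjusted p under 0.05 (2.2% and 0.895% of the genes to which it gave an adjusted p). The median log2 fold change (PELP1 FBKO minus FLOXED) of the 22 was 0.35, against 0.00 for all tested genes, and 21 of the 22 were positive, against 50% of all tested genes. One of the 22, Glra3, reached the level needed for testing only through the PELP1 FBKO libraries. Among the 20 with at least 10 reads in every library the median was 0.26, against -0.004 for all 14281 genes with as many. Both libraries of PELP1 FBKO lay above both of FLOXED in 13 of the 22 (25.4% of all tested genes) and below in 0 (23%). Glra3, whose testing rested on its PELP1 FBKO libraries, is counted in the 21 and in the 13. In whole-tissue RNA, a different number of cells of a type and a different amount of RNA per cell cannot be told apart.

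**Figure D1:**
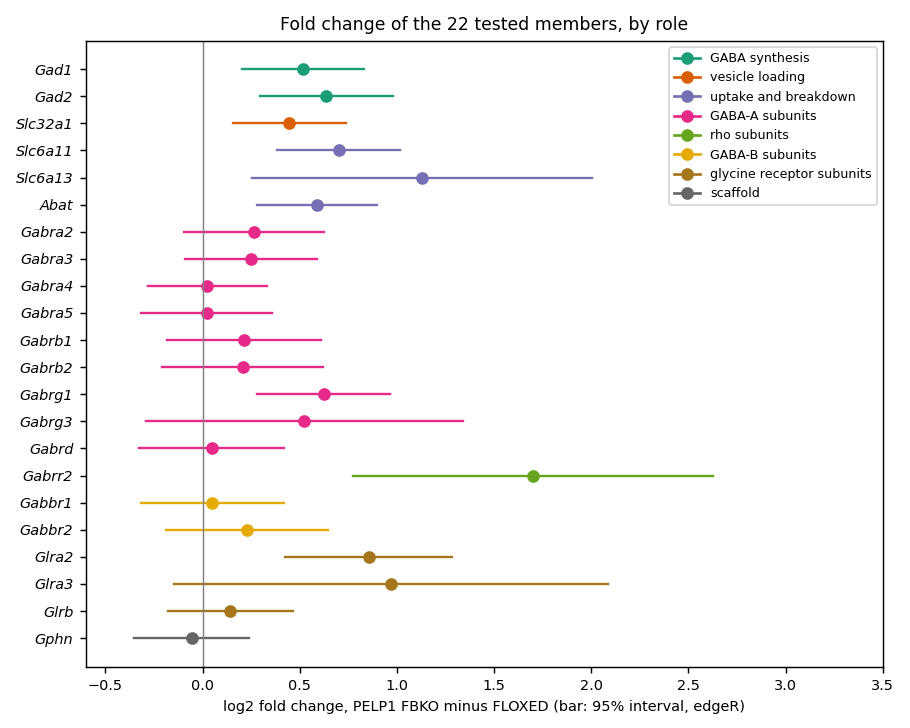
Log2 fold change (PELP1 FBKO minus FLOXED, horizontal axis) of the 22 tested genes, grouped by role, with 95% intervals from edgeR. The 6 genes of GABA handling at the top lie between 0.45 and 1.13, while Gabra4, Gabra5, Gabrd, Gabbr1 and Gphn lie between -0.06 and 0.05.

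The libraries held between 17524594 and 22447658 reads in genes, and a count of 0 allowed a level of up to 0.136 to 0.171 CPM (counts per M reads in tested genes, TMM-scaled), the worth of 3 reads, which covers counting error only. Pelp1 itself stood at 18.0 and 17.3 CPM in PELP1 FBKO and at 26.7 and 26.3 CPM in FLOXED, a log2 fold change of -0.59 that did not pass the threshold (edgeR adjusted p = 0.130). All 8 CA1 and all 8 dentate granule cell markers had enough reads to be tested. Of 9 markers of cerebellum and hindbrain 7 were too low to be tested. FLOXED 1 also stood apart in choroid plexus markers, whose summed level was 51.5 and 63.0 CPM in PELP1 FBKO and 350.3 and 97.3 CPM in FLOXED. Most of this was Ttr, the transthyretin gene, with 21.4 and 33.9 CPM in PELP1 FBKO and 324 and 67.5 CPM in FLOXED. Without FLOXED 1 the median log2 fold change of the 22 was 0.33, and the part of choroid plexus in the results was not tested.

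Glutamate decarboxylase, the enzyme that turns glutamate into GABA, is encoded by Gad1 and Gad2. Gad1, which supplies most basal GABA, had 476 and 501 CPM in PELP1 FBKO 1 and 2 and 341 and 341 CPM in FLOXED 1 and 2. The PELP1 FBKO libraries were 1.43-fold higher on average, far beyond the gap between replicates of either genotype, with a log2 fold change of 0.52 (SE 0.137, edgeR adjusted p = 0.141, unadjusted p = 0.00545). Gad2, whose product sits at nerve terminals, had 251 and 286 CPM in PELP1 FBKO and 158 and 187 CPM in FLOXED. Its log2 fold change was 0.64 (SE 0.149, edgeR adjusted p = 0.112), and again the groups did not overlap. DESeq2 called both higher, with an adjusted p of 0.0194 for Gad1 and 0.00744 for Gad2. Over 12 alternatives the adjusted p ranged from 0.0161 to 0.412 for Gad1 and from 0.00539 to 0.376 for Gad2. Reads of Gad1 over reads of Gad2 came to 1.89 and 1.75 in PELP1 FBKO and to 2.16 and 1.82 in FLOXED, so this ratio overlapped between genotypes.

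Slc32a1, the vesicular transporter that loads GABA and glycine into synaptic vesicles, had 127 and 128 CPM in PELP1 FBKO and 97.9 and 89.5 CPM in FLOXED. The groups were apart and the replicates close, with a log2 fold change of 0.45 (SE 0.126, edgeR adjusted p = 0.159). Its 95% interval ran from 0.16 to 0.74. Its adjusted p ranged from 0.0410 to 0.484 over 12 alternatives, and the lowest value came with offsets for transcript length and GC content.

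Uptake and breakdown genes were also higher in both PELP1 FBKO libraries. Slc6a11, a GABA transporter of astrocytes, had 198 and 168 CPM in PELP1 FBKO and 111 and 114 CPM in FLOXED. With a log2 fold change of 0.70 (SE 0.137, edgeR adjusted p = 0.0828, DESeq2 adjusted p = 0.00194) it had the smallest unadjusted p of the 22, and 166 of the 14978 tested genes had a smaller one. The adjusted p of Slc6a11 was under 0.05 in 6 of 12 alternatives and ranged from 0.000833 to 0.274. Abat, the mitochondrial transaminase that degrades GABA, had 357 and 361 CPM in PELP1 FBKO and 229.6 and 248 CPM in FLOXED. The replicates lay close together and the groups apart, with a log2 fold change of 0.59 (SE 0.134, edgeR adjusted p = 0.106, DESeq2 adjusted p = 0.00591, with a range of 0.00399 to 0.369 over 12 alternatives). Slc6a13, a GABA transporter found in the leptomeninges, had 6.39 and 14.7 CPM in PELP1 FBKO and 4.11 and 5.49 CPM in FLOXED. PELP1 FBKO 2 stood apart and PELP1 FBKO 1 lay close to FLOXED 2, so 1 library decided its size. The log2 fold change of Slc6a13 was 1.13 (SE 0.380, edgeR adjusted p = 0.215), but 1.59 without PELP1 FBKO 1 and 0.41 without PELP1 FBKO 2. Summed over 9 meningeal fibroblast markers, the level was 175 and 265 CPM in PELP1 FBKO and 135 and 166 CPM in FLOXED, again highest in PELP1 FBKO 2. Of the 8 tested, 3 had an unadjusted p under 0.05, all with positive fold changes, against 10.1% of all tested genes on the higher side. The part of meningeal tissue in the Slc6a13 result was not tested.

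**Figure D2:**
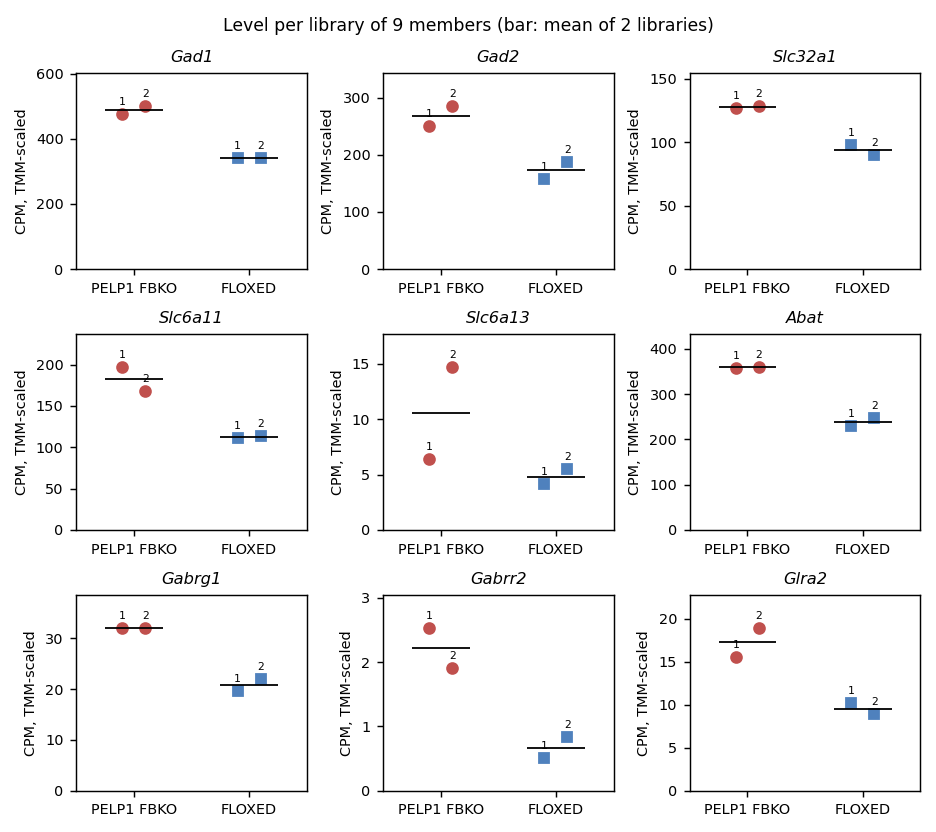
Level of the 9 genes with an unadjusted p under 0.05, in CPM (TMM-scaled, vertical axis from 0), with a point per library numbered by replicate and a bar at the mean of 2 libraries. In each panel both PELP1 FBKO points lie above both FLOXED points, and Slc6a13 has the widest gap between its PELP1 FBKO libraries relative to their mean (6.39 and 14.7 CPM).

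GABA-A receptors are pentamers, usually of alpha, beta and gamma or delta subunits, and 12 of their genes outside the rho class were examined. Of these 9 were tested, all with a positive log2 fold change between 0.02 and 0.62. At an unadjusted p under 0.05 in edgeR's quasi-likelihood test 1 of the 9 was higher, near the 10.1% of all tested genes. Both PELP1 FBKO libraries lay above both FLOXED libraries in 4, against 25.4% of all tested genes. The summed level of the 12 barely failed to overlap, at 998 and 893 CPM in PELP1 FBKO and 807 and 886 CPM in FLOXED.

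The 1 at an unadjusted p under 0.05 was Gabrg1, a gamma subunit. It had 32.0 and 32.1 CPM in PELP1 FBKO and 19.7 and 21.9 CPM in FLOXED. The groups were apart by more than the replicate spread, with a log2 fold change of 0.62 (SE 0.148, edgeR adjusted p = 0.117, DESeq2 adjusted p = 0.0672, range 0.0247 to 0.318). The related Gabrg3 was low, from 51 and 36 reads in PELP1 FBKO and 29 and 26 reads in FLOXED, and its 95% interval on the log2 scale, from -0.29 to 1.34, spans 0.

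Among alpha subunits, Gabra5, which serves tonic inhibition of hippocampal pyramidal cells, had 221 and 196 CPM in PELP1 FBKO and 222 and 189 CPM in FLOXED. The values interleaved, and the log2 fold change was 0.02 with a 95% interval from -0.32 to 0.36. Gabra4, which pairs with the delta subunit in dentate granule cells, had 133 and 117 CPM in PELP1 FBKO and 127 and 119 CPM in FLOXED, a log2 fold change of 0.03 (95% interval -0.28 to 0.33). That delta subunit gene, Gabrd, had 29.3 and 24.6 CPM in PELP1 FBKO and 27.7 and 24.5 CPM in FLOXED, a log2 fold change of 0.05 (95% interval -0.32 to 0.42). For these 3 subunits of extrasynaptic receptors the highest upper bound of an interval was 0.42, that of Gabrd, from 2 libraries per genotype. Dentate granule cell markers had a median log2 fold change of 0.43, with an unadjusted p under 0.05 on the higher side in 3 of 8, against 10.1% of all tested genes. Their summed level was 380 and 282 CPM in PELP1 FBKO and 232 and 262 CPM in FLOXED. The part of dentate granule cells in the values of these subunits was not tested. The direction of Gabra4, Gabra5 and Gabrd turned when single libraries were left out.

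Gabra2, common at synapses on the axon initial segment, had 165 and 147 CPM in PELP1 FBKO and 114 and 146 CPM in FLOXED. FLOXED 2 came within 2 CPM of PELP1 FBKO 2, and the log2 fold change was 0.26 (95% interval -0.10 to 0.62), or 0.099 without FLOXED 1. Gabra3 had 87.4 and 97.3 CPM in PELP1 FBKO and 69.7 and 85.6 CPM in FLOXED, a log2 fold change of 0.25 (95% interval -0.09 to 0.59), likewise with FLOXED 2 next to PELP1 FBKO 1. The beta subunit genes Gabrb1 and Gabrb2 overlapped between genotypes. Gabrb2 had 305 and 257 CPM in PELP1 FBKO and 207 and 279 CPM in FLOXED, and both had a log2 fold change of 0.21 (95% intervals -0.18 to 0.61 for Gabrb1 and -0.21 to 0.62 for Gabrb2). Without FLOXED 1 the log2 fold change was 0.11 for Gabra3, 0.10 for Gabrb1 and 0.0069 for Gabrb2.

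Gabrg1, Gabra2, Gabra4 and Gabrb1 lie in a gene cluster on chromosome 5, with log2 fold changes of 0.62, 0.26, 0.03 and 0.21. By RefSeq's GRCm38 annotation the spans of Gabra4 and Gabrb1 overlap at their starts, and that of Gabra5 overlaps another receptor gene on chromosome 7. Whether counting used strand is not given in the sources used here, so reads in such overlaps are uncertain. Within the cluster Gabrg1 and Gabra2 have starts whose 250 upstream bases are free of annotated exons, and they are shown with those of Slc6a11, which had the smallest p, to set higher genes beside a neighbour with a smaller difference. The sequences come from RefSeq (GRCm38.p6), run 5′ to 3′ on the strand of the gene and end at the base before the start, and capitals mark the matches to the motifs searched.
Slc6a11 (chr6:114130991-114131240, plus strand): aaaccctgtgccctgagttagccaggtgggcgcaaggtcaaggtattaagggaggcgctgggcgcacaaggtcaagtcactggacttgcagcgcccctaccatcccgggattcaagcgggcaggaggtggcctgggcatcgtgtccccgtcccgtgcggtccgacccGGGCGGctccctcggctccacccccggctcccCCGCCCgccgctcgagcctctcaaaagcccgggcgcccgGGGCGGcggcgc
Gabrg1 (chr5:70842618-70842867, minus strand): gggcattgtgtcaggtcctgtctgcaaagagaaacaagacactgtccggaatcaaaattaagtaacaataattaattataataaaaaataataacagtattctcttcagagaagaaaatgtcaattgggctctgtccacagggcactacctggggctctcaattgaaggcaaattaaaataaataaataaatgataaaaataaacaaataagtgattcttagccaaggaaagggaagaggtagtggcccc
Gabra2 (chr5:71095850-71096099, minus strand): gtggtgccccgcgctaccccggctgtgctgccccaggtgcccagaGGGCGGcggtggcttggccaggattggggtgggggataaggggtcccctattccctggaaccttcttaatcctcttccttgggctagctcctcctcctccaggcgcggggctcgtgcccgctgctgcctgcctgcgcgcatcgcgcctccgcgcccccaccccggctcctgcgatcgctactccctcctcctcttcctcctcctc
The Gabrg1 stretch was 35.6% G and C, against 71.2% for Slc6a11 and 70.0% for Gabra2. Both strands were searched at every position for the GC box GGGCGG, the cAMP response element written as TGACGTCA and TATAAA, the letters of the core promoter box. None of these contains another, and a match shows the letters only. Slc6a11 held 3 GC boxes and Gabra2 held 1, while Gabrg1 held none of the 3 motifs in these letters. Of 32851 windows of this length in the table, 32.7% held a GC box, 12.4% TATAAA and 1.55% a cAMP response element. The table covered 25 of the 28 genes with 31 windows, of which 16 held a GC box, 5 TATAAA and 0 a cAMP response element. The TATAAA matches lay from 30 (Gabrb2) to 235 (Gabra3) bases before the start.

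The rho subunits form GABA-gated channels best known from the retina. Gabrr2 was scarce, with 56 and 39 reads in PELP1 FBKO and 9 and 18 reads in FLOXED. This came to 2.54 and 1.91 CPM in PELP1 FBKO and to 0.513 and 0.830 CPM in FLOXED, so the groups did not overlap. Its log2 fold change of 1.70 (SE 0.401, edgeR adjusted p = 0.115, DESeq2 adjusted p = 0.165, range over 11 alternatives 0.00708 to 0.406) was the highest of the 22, with a wide 95% interval from 0.78 to 2.62. Leaving out single libraries gave between 1.42 and 2.09. Gabrr1, its neighbour on chromosome 4, had 7 and 8 reads in PELP1 FBKO and 4 and 8 reads in FLOXED and was not tested.

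GABA-B receptors are dimers in which Gabbr1 binds the transmitter and Gabbr2 couples to G proteins. Gabbr1 was at 714 and 621 CPM in PELP1 FBKO and at 599 and 690 CPM in FLOXED. The values interleaved, with a log2 fold change of 0.05 (95% interval -0.32 to 0.42). Gabbr2 was at 249 and 185 CPM in PELP1 FBKO and at 167 and 203 CPM in FLOXED. Its log2 fold change of 0.23 (95% interval -0.19 to 0.65) rested on PELP1 FBKO 1, since it was -0.020 without that library.

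Glycine receptors in the forebrain are mostly built from alpha 2 or alpha 3 with the beta subunit. Glra2, the alpha 2 gene, had 15.6 and 19.0 CPM in PELP1 FBKO and 10.2 and 8.95 CPM in FLOXED. Both PELP1 FBKO libraries were well above both FLOXED libraries, with a log2 fold change of 0.85 (SE 0.187, edgeR adjusted p = 0.0993, DESeq2 adjusted p = 0.0359). The adjusted p of Glra2 was under 0.05 in 5 of 12 alternatives and ranged from 0.00975 to 0.285, and without a single library its log2 fold change lay between 0.71 and 0.97. Glra2 and Slc6a11 were the 2 members with an edgeR adjusted p under 0.10, where 1.56% of all tested genes lay on the higher side. Glra3 had 16 and 18 reads in PELP1 FBKO and 6 and 10 reads in FLOXED, a log2 fold change of 0.97 whose 95% interval, -0.15 to 2.09, spans 0. Glrb, the beta subunit that binds gephyrin, had 254 and 232 CPM in PELP1 FBKO and 206 and 235 CPM in FLOXED, a log2 fold change of 0.14 (95% interval -0.18 to 0.47) with overlapping groups. Gphn itself had 102 and 92.1 CPM in PELP1 FBKO and 104 and 96.9 CPM in FLOXED. It was the 1 tested member with a negative log2 fold change, -0.06 (95% interval -0.35 to 0.24), and its groups overlapped.

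The remaining members were at or near the detection floor. Gabra6, an alpha subunit of cerebellar granule cells, had 0 and 0 reads in PELP1 FBKO and 1 and 0 reads in FLOXED. Glra1, the alpha subunit of adult spinal cord, had 0 and 3 reads in PELP1 FBKO and 0 and 6 reads in FLOXED. Glra4 had 1 and 3 reads in PELP1 FBKO and 0 and 0 reads in FLOXED. Gabre and Gabrq, the epsilon and theta subunits known from hypothalamus and brainstem, had at most 7 reads in a library. No difference was detectable in these at this depth.

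**Figure D3:**
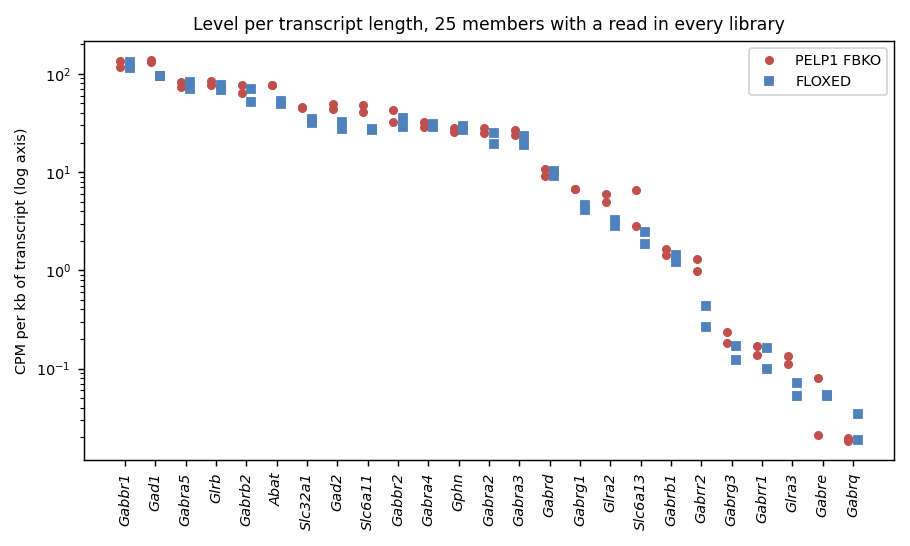
Level per transcript length (CPM per kb of the longest annotated transcript, log axis) in each library, for the members with a read in every library, ordered by mean level. Levels run from above 100 CPM per kb for Gabbr1 to about 0.02 for Gabrq.

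Per transcript length, Gabbr1 and Gad1 stood at the top, with mean levels of 127 and 136 CPM per kb in PELP1 FBKO and 123 and 94.8 CPM per kb in FLOXED. Gabra5, Glrb, Gabrb2 and Abat followed, between 70.4 and 80.3 CPM per kb in PELP1 FBKO and between 51.5 and 77.0 CPM per kb in FLOXED. Gabra4, Gabra2 and Gabra3 lay between 25.2 and 30.4 CPM per kb in PELP1 FBKO and between 21.2 and 29.9 CPM per kb in FLOXED, and Gabrd lay at 9.96 CPM per kb in PELP1 FBKO and 9.64 CPM per kb in FLOXED. Gabrb1, whose longest transcript is 13.7 kb, came to 1.54 CPM per kb in PELP1 FBKO and 1.33 CPM per kb in FLOXED.

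Genes that work with these members were examined as 4 lists of 39 genes in all, of which 38 were tested. With a median log2 fold change of 0.11, 9 reached an unadjusted p under 0.05 with higher levels and 0 with lower ones. Over all tested genes these shares were 10.1% and 5.55%. Of these 9, 6 belonged to the 7 tested genes of precursor supply, the GABA shunt and glycine uptake, which had a median of 0.47. Glul, the glutamine synthetase of astrocytes, had 1875 and 1546 CPM in PELP1 FBKO and 1018 and 1177 CPM in FLOXED, a log2 fold change of 0.64 (SE 0.179, edgeR adjusted p = 0.156, DESeq2 adjusted p = 0.00675, range over 12 alternatives 0.00431 to 0.579). Slc38a3, a glutamine transporter gene, averaged 95.5 ± 0.713 CPM in PELP1 FBKO and 68.4 ± 0.111 CPM in FLOXED (SD, n = 2 each, log2 fold change 0.48, SE 0.121). Aldh5a1, which acts after Abat in GABA breakdown, had 157 and 146 CPM in PELP1 FBKO and 102 and 116 CPM in FLOXED (log2 fold change 0.47, SE 0.133). Of 4 chloride transport genes, Slc12a2, a chloride importer, had 99.2 and 94.1 CPM in PELP1 FBKO and 46.0 and 67.0 CPM in FLOXED, a log2 fold change of 0.77 (SE 0.183, edgeR adjusted p = 0.116, DESeq2 adjusted p = 0.00834, range 0.00635 to 0.266). The neuronal chloride exporter gene Slc12a5 overlapped between genotypes, with 523 and 405 CPM in PELP1 FBKO and 348 and 457 CPM in FLOXED. Of 20 partners of the inhibitory synapse 1 reached an unadjusted p under 0.05, on the higher side, and the list's median was 0.04. The 1 was Plcl1, which encodes a binding partner of GABA-A receptors, at 0.71 (SE 0.185, edgeR adjusted p = 0.138, DESeq2 adjusted p = 0.0330, range 0.0203 to 0.392). Of the 20, both PELP1 FBKO libraries lay above both FLOXED libraries in 3 and below in 6, against 25.4% and 23% of all tested genes. The 6 included Plcl2 at -0.27 (SE 0.123) and Ubqln1 at -0.25 (SE 0.130). Of 7 auxiliary subunit and effector channel genes of GABA-B receptors 1 reached an unadjusted p under 0.05, Kctd12b at 0.70 (SE 0.229).

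Levels of cell type markers are given beside these results, and their part in them was not tested. No marker in any of the lists passed an adjusted p of 0.05 in edgeR's quasi-likelihood test, and neither did any other gene. DESeq2 at that threshold called 8 of 11 oligodendrocyte, 6 of 11 astrocyte and 2 of 24 interneuron markers higher. It also called 2 of 8 dentate granule cell, 2 of 9 meningeal fibroblast, 2 of 6 endothelial, 1 of 6 microglial and 1 of 8 striatal markers higher. Lower by DESeq2 were 4 of 8 CA1 markers and 1 of 24 interneuron markers. Of all genes given an adjusted p, DESeq2 called 2.2% higher and 0.895% lower. In the counts that follow, higher and lower mean an unadjusted p under 0.05 in edgeR's quasi-likelihood test, and nothing more. Of all tested genes 10.1% were higher and 5.55% lower in this sense. Of 24 interneuron markers 10 were higher and 1 lower, with a median log2 fold change of 0.39, beside 0.52 for Gad1, 0.64 for Gad2 and 0.45 for Slc32a1. Reln was at 80.8 and 80.2 CPM in PELP1 FBKO and 39.9 and 56.1 CPM in FLOXED, while the abundant Cck was at 198 and 156 CPM in PELP1 FBKO and 284 and 254 CPM in FLOXED. The summed level of the 24 overlapped, at 1148 and 1122 CPM in PELP1 FBKO and 1136 and 1025 CPM in FLOXED. That overlap rested on Cck, since the other 23 summed to 950 and 967 CPM in PELP1 FBKO and to 852 and 771 CPM in FLOXED, a sum taken after the values were seen. Of 11 astrocyte markers 7 were higher and 0 lower, with a median of 0.58 and a summed level of 6693 and 6175 CPM in PELP1 FBKO and 3933 and 4911 CPM in FLOXED. That median lies beside 0.70 for Slc6a11, 0.59 for Abat and 0.64 for Glul. Oligodendrocyte markers, 11 in number, were higher in 10 cases with a median of 0.82. Of 6 endothelial markers 3 were higher and 0 lower, with a median of 0.48 and a summed level of 343 and 309 CPM in PELP1 FBKO and 194 and 256 CPM in FLOXED. Of 6 microglial markers 2 were higher and 0 lower, with a median of 0.29 and a summed level of 466 and 587 CPM in PELP1 FBKO and 388 and 390 CPM in FLOXED. Of 8 CA1 pyramidal cell markers 0 were higher and 6 lower, with a median of -0.69 and a summed level of 996 and 825 CPM in PELP1 FBKO and 1148 and 1360 CPM in FLOXED. Neurons that use GABA also abound in the striatum and occur in the thalamus, both forebrain regions outside the hippocampus. Of 8 striatal markers 2 were higher and 0 lower, with a median of 0.18 and a summed level of 171 and 153 CPM in PELP1 FBKO and 122 and 136 CPM in FLOXED. Of 7 thalamic markers 4 were higher and 0 lower, with a median of 0.58 and a summed level of 77.0 and 94.0 CPM in PELP1 FBKO and 62.7 and 82.4 CPM in FLOXED. Neither these lists nor the interneuron and astrocyte lists had a marker at 0 reads in any library.

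**Figure D4:**
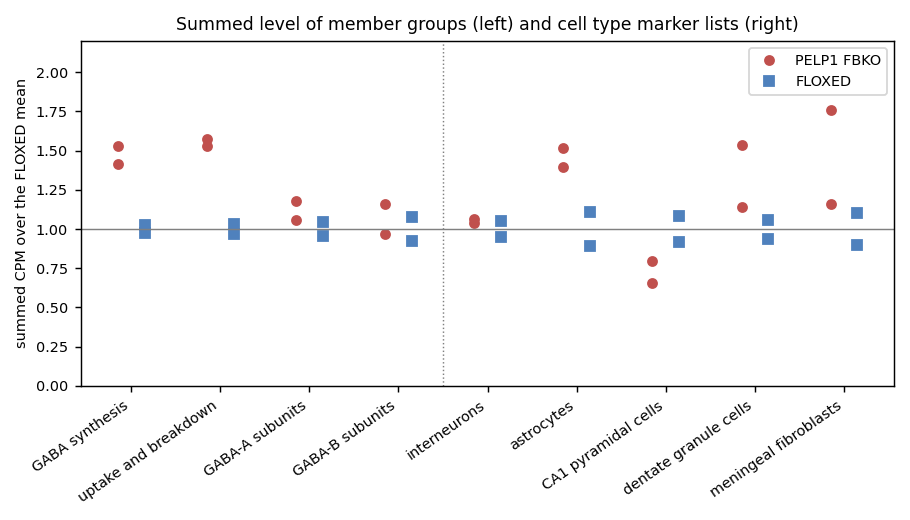
Summed CPM of member groups (left of the dotted line) and of cell type marker lists (right), each divided by the mean of the FLOXED libraries, with a point per library. GABA synthesis stands at 1.41 and 1.53 in PELP1 FBKO and uptake and breakdown at 1.58 and 1.53, while the interneuron sum, which holds the abundant Cck, stands at 1.06 and 1.04, the astrocyte sum at 1.51 and 1.40 and the CA1 sum at 0.794 and 0.658.

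**Figure D5:**
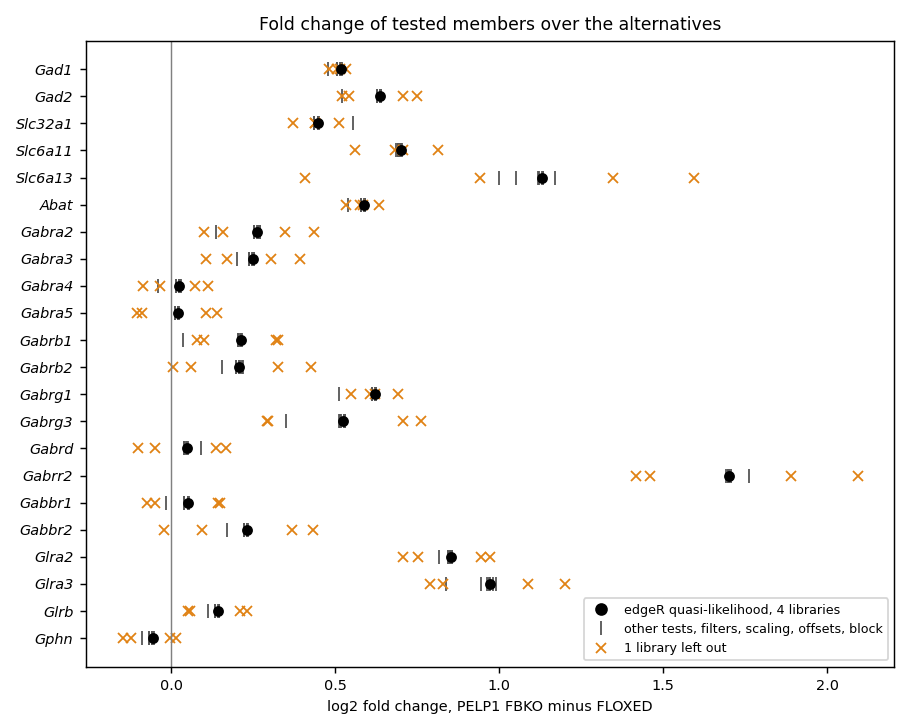
Log2 fold change (PELP1 FBKO minus FLOXED) of each tested member with all 4 libraries, under other tests, filters, scalings, offsets or a replicate block, and with 1 library left out. Slc6a13 spreads from 0.41 to 1.59 when 1 library is left out, while Gad1 stays between 0.48 and 0.53.

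The plot of the alternatives shows which members depended on single libraries. Gad1, Abat and Gabrg1 stayed within 0.48 to 0.53, 0.53 to 0.63 and 0.55 to 0.69 on the log2 scale when each library was left out in turn. Slc6a13 and Gabrr2 had the widest ranges of the 9 genes with an unadjusted p under 0.05, and the values near 0 of Gabra4, Gabra5, Gabrd, Gabbr1 and Gphn turned sign in at least 1 of these fits.

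The number of members past an adjusted p of 0.05 also varied, always on the higher side. The exact test of edgeR called 7, the 5 of DESeq2 (Gad1, Gad2, Abat, Slc6a11 and Glra2) with Gabrg1 and Gabrr2, where 3.75% of all genes were called higher and 1.32% lower. A fit with replicate number as a block called Slc6a11, Slc6a13, Glra2 and Gabrr2, against 2.58% of all genes higher and 1.2% lower. The labels give no such pairing, and a block beside genotype leaves little residual information in 4 libraries. With offsets for transcript length and GC content Slc32a1, Slc6a11 and Abat were called, against 1.24% and 0.378%. Without a count filter Slc6a11 and Glra2 were called, against 1.51% and 0.439%. With other size factors (RLE) 0 members were called, as were 0.0868% of all genes higher and 0.0267% lower. Requiring 10 reads in every library also left 0 members, with 0.133% of all genes higher and 0.021% lower, and limma-voom called 0% either way.

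Leaving out 1 library leaves a genotype with a single library, whose spread is then assumed to equal that between the libraries of the other genotype, so the calls of these fits are given as values only. Without PELP1 FBKO 1, Glra2 and Slc6a13 had an adjusted p under 0.05, with Slc6a13 resting on PELP1 FBKO 2 alone, against 2.99% of all genes higher and 0.68% lower. Without PELP1 FBKO 2, Slc6a11 and Gabrr2 did, against 1.79% and 2.12%. Without FLOXED 2 no member did, against 2.07% and 1.41%, and without FLOXED 1 no gene at all did. At an unadjusted p under 0.05 the members with positive fold changes numbered 8 without PELP1 FBKO 1, against 8.83% of all genes higher and 3.26% lower. They numbered 7 without PELP1 FBKO 2, against 6.6% and 5.78%. They numbered 12 without FLOXED 2, where 12% of all genes were higher and 12.2% lower, and 8 without FLOXED 1, where 6.82% were higher and 3.6% lower. The members with negative fold changes numbered 0 in all 4 of these fits.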

How the data were processed

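RNA from the hippocampus was sequenced as 50-base single reads from TruSeq libraries, per the labels' protocols. The values deposited by the authors are raw counts of reads for each gene symbol, not normalized. CASAVA 1.8.2, TopHat2 2.0.8b, HTSeq and the mouse build mm9 are listed in the submitters' processing notes, while the series text names a human build. The settings of HTSeq are not given in the sources used here. Its 5 summary rows, 48.1% to 56.5% of all rows' reads (mostly alignments that were not unique), stayed out of library sizes and tests, and reads with several alignments were not counted.

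Libraries were grouped by the genotype label. Whether libraries of 1 genotype are separate animals is not stated, so the p-values reflect the spread of these samples alone, possibly a technical one. All genes were fitted in edgeR 4.0.16 (R 4.3.3) with TMM scaling, filterByExpr and the quasi-likelihood F test for genotype, with Benjamini-Hochberg adjustment over 14978 genes. Standard errors and 95% intervals derive from the F statistic. Counts were also simulated with 2 libraries per genotype and 14978 genes, all given a common dispersion of 0.0201. Changes were put only into genes with ample reads. There edgeR's quasi-likelihood test recovered 82 of 100 genes changed 2-fold and 100 of 100 changed 4-fold, and called 8 of 14778 unchanged genes. Real genes differ in dispersion and some members have few reads, so these rates do not give the power in these data. With 2 libraries against 2, an exact permutation test could not go below p = 0.333. Alternatives were DESeq2 1.42.0, limma-voom (limma 3.58.1), edgeR's exact test, other size factors and filters, a replicate block, offsets for transcript length and GC content, and leaving out each library. Lengths came from the longest GENCODE vM21 transcript, known for 98.9% of tested genes. That annotation, like the RefSeq tables, belongs to GRCm38, a newer build than mm9. Promoter sequences are therefore given in GRCm38.p6 and were not joined to mapped reads.

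All 28 members are named. Of each pathway list up to 3 and of each marker list up to 2 genes with the smallest p were eligible, beside Pelp1, and not all are described. The members and lists were chosen with earlier results of these data known.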

Additional observations from a re-analysis of the deposited data

How the results depend on the processing

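With edgeR's quasi-likelihood test 0 members passed the threshold in either direction. The number higher in PELP1 FBKO was 2 without a count filter, 3 with length and GC offsets, 4 with the replicate number as a block, 5 by DESeq2 and 7 by edgeR's exact test, and 0 by limma-voom, with other size factors and with the stricter filter on reads. Leaving out single libraries gave 0 to 2, and no alternative put a member past the threshold on the lower side. The cause was not tested. When single libraries were left out, members at an unadjusted p under 0.05 numbered 7 to 12 higher and 0 lower, against 6.6% to 12% and 3.26% to 12.2% of all genes, and the median log2 fold change of the tested members lay between 0.30 and 0.42. These fits hold a genotype with a lone library, assumed to vary like the other genotype. Pelp1 passed the threshold by edgeR's exact test, with a log2 fold change of -0.59.

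The labels do not say that equal replicate numbers share an animal or batch, and the deviations of equally numbered libraries correlated at -0.118 over genes. The replicate block called 387 genes higher and 179 lower. A pairing with crossed numbers, chosen after seeing the data, called 223 and 91, with 2 members higher. With so few libraries per genotype, crossing the numbers reverses the sign of the correlation by construction.

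Near 0, 6 members turned sign. With length and GC offsets the log2 fold change was -0.040 for Gabra4 and -0.017 for Gabbr1. Leaving out single libraries gave -0.086 to 0.11 for Gabra4, -0.10 to 0.14 for Gabra5, -0.10 to 0.17 for Gabrd, -0.072 to 0.15 for Gabbr1, -0.020 to 0.43 for Gabbr2 and -0.15 to 0.014 for Gphn. Of 262 values of single members over the alternatives, 225 kept their direction and their side of the threshold, and 25, of 9 members, newly passed it. Depth limits the 6 untested members and the low Gabrr2, Gabrg3 and Glra3.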
